A study of Mus musculus with 10 samples.

Results

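Fast signalling between neurons of the hindbrain and spinal cord runs on GABA, glycine and glutamate, and 8 genes for the synthesis and transport of these transmitters were examined in mice lacking Nkx2.2. The genes were taken by name: Gad1, Gad2, Slc32a1, Slc6a5, Slc6a9, Slc17a6, Slc17a7 and Slc17a8. Every probe set whose annotated gene symbol included one of them was kept. This gave 15 of the 45037 non-control probe sets of the array, and they covered 7 of the 8 genes. The 7 genes were read by 2, 2, 4, 2, 2, 2 and 1 probe sets in the order above, and 0 of the 15 carried several symbols. No probe set was named for Slc17a8 in the annotation used, so it was not analysed here. The tissue was pons, medulla and rostral spinal cord of newborn C57BL/6 mice (postnatal day 1.5-2), with 1 array for each of 5 Nkx2.2-/- mice (replicates 11, 12, 22, 29 and 43) and 5 wild-type littermates (replicates 14, 15, 16, 18 and 21). Nkx2.2 is a homeodomain transcription factor of the ventral neural tube and the oligodendrocyte lineage, and the allele is labelled no further than Nkx2.2-/-. Values are log2 expression values from RMA, and every difference below is Nkx2.2-/- minus wild type on that scale.

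Gad1 and Gad2 encode the glutamate decarboxylases that make GABA. The carrier encoded by Slc32a1 loads both GABA and glycine into synaptic vesicles and marks inhibitory neurons. Slc6a5 encodes the plasma membrane glycine transporter of glycinergic neurons, which keeps glycine available for vesicle filling, and Slc6a9 encodes the glycine transporter found mainly on glia. Slc17a6, Slc17a7 and Slc17a8 encode the vesicular glutamate transporters. In the brainstem and cord Slc17a6 is the main one, Slc17a7 is known chiefly from cortex, hippocampus and cerebellar granule cells, and Slc17a8 occurs in scattered populations that include serotonergic neurons. Serotonergic neurons and the glutamatergic V3 interneurons of the cord arise from progenitors that express Nkx2.2.

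The start regions of Slc32a1 and Slc17a6 are shown because these vesicular carriers separate inhibitory from excitatory neurons. Both windows run from 250 bases before to 50 bases after an annotated start, on the plus strand of GRCm38.p6, and were taken from RefSeq. Slc32a1 lies at chr2:158610508-158610807, and the first of 2 windows of Slc17a6 at chr7:51621580-51621879. Capitals mark the core of the site bound by homeodomain proteins of the NK2 class, AAGTG on either strand.
Slc32a1: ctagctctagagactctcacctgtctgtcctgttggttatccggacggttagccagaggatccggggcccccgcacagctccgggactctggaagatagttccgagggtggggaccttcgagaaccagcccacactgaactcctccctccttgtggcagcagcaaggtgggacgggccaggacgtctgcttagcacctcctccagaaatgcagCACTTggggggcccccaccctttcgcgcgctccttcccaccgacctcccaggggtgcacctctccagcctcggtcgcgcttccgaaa
Slc17a6: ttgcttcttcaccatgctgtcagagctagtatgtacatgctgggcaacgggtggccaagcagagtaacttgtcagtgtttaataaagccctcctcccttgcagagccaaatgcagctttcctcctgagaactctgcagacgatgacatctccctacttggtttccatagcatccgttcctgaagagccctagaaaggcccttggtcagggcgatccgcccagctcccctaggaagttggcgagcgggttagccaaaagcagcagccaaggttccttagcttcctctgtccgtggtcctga

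The core letters stood once in the Slc32a1 window and were absent from the Slc17a6 window. Over the 13 windows of the 8 genes they were present in 6, and they were present in 46.4% of 32851 windows of all genes, so the letters alone do not set these genes apart. The windows of the 8 genes held between 43% and 63.7% G or C, and 9 of the 13 lay above the median of all windows, 52.7%. Gad1, Gad2 and Slc32a1 lie on chromosome 2, as does Nkx2-2.

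The Nkx2-2 probe set separated the groups and so checked the labels. It read 4.73, 4.34, 4.24, 4.58 and 4.64 in Nkx2.2-/- replicates 11, 12, 22, 29 and 43, and 6.88, 6.47, 6.49, 6.51 and 6.42 in wild-type replicates 14, 15, 16, 18 and 21 (difference -2.05, SE 0.111, limma adjusted p = 7.2e-05). The labels do not say where this probe set lies relative to the deletion. On 2 arrays, 1 in each group, the 5 prime Gapdh control was dim: its signal fell short of the 3 prime control by 3.78 in Nkx2.2-/- replicate 43 and by 2.13 in wild-type replicate 14, while the gap ran from -0.32 to 0.13 on the other 8. The results below are therefore also given without these 2. Markers of the dissected levels were of mixed brightness. The 8 hindbrain Hox genes lay above 13.6% (Hoxb1) to 91.9% (Hoxb3) of probe sets, with a median of 79.1%, and the 14 spinal cord Hox genes above 4.03% (Hoxd10) to 95% (Hoxa5), with a median of 60.9%. The 12 markers of forebrain and midbrain neurons lay above 5.5% (Tbr1) to 77.7% (Neurod6), with a median of 35.4%, and Lhx2, above 72%, was also among the brighter ones. All 14 genes of neurons in general were bright, from Elavl4, above 96% of probe sets, to Stmn2, above 99.8%.

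No difference passed the test for any of the 7 measured transmitter genes. Of the 15 probe sets, 0 were lower and 0 were higher in Nkx2.2-/- mice (limma, Benjamini-Hochberg over all probe sets at 0.05), and 0 had even an unadjusted p under 0.05. Over all 45037 probe sets, 23 were lower (0.0511%) and 0 higher (0%), and 3.43% had an unadjusted p under 0.05. The adjusted p was 0.9997 for each of the 15. With 1 probe set per gene, 0 of the 7 genes were called lower or higher, beside 11 of 18193 genes lower (0.0605%) and 0 higher (0%). The median difference of the 15 probe sets was 0.03, beside 0.001 over all probe sets, and 5 were below 0 and 10 above. All 15 differences were smaller than 0.2 in size. In RNA from whole tissue, fewer cells of a type and less RNA per cell cannot be told apart, and a loss in a small population may be hidden by the same transcript from others.

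**Figure D1:**
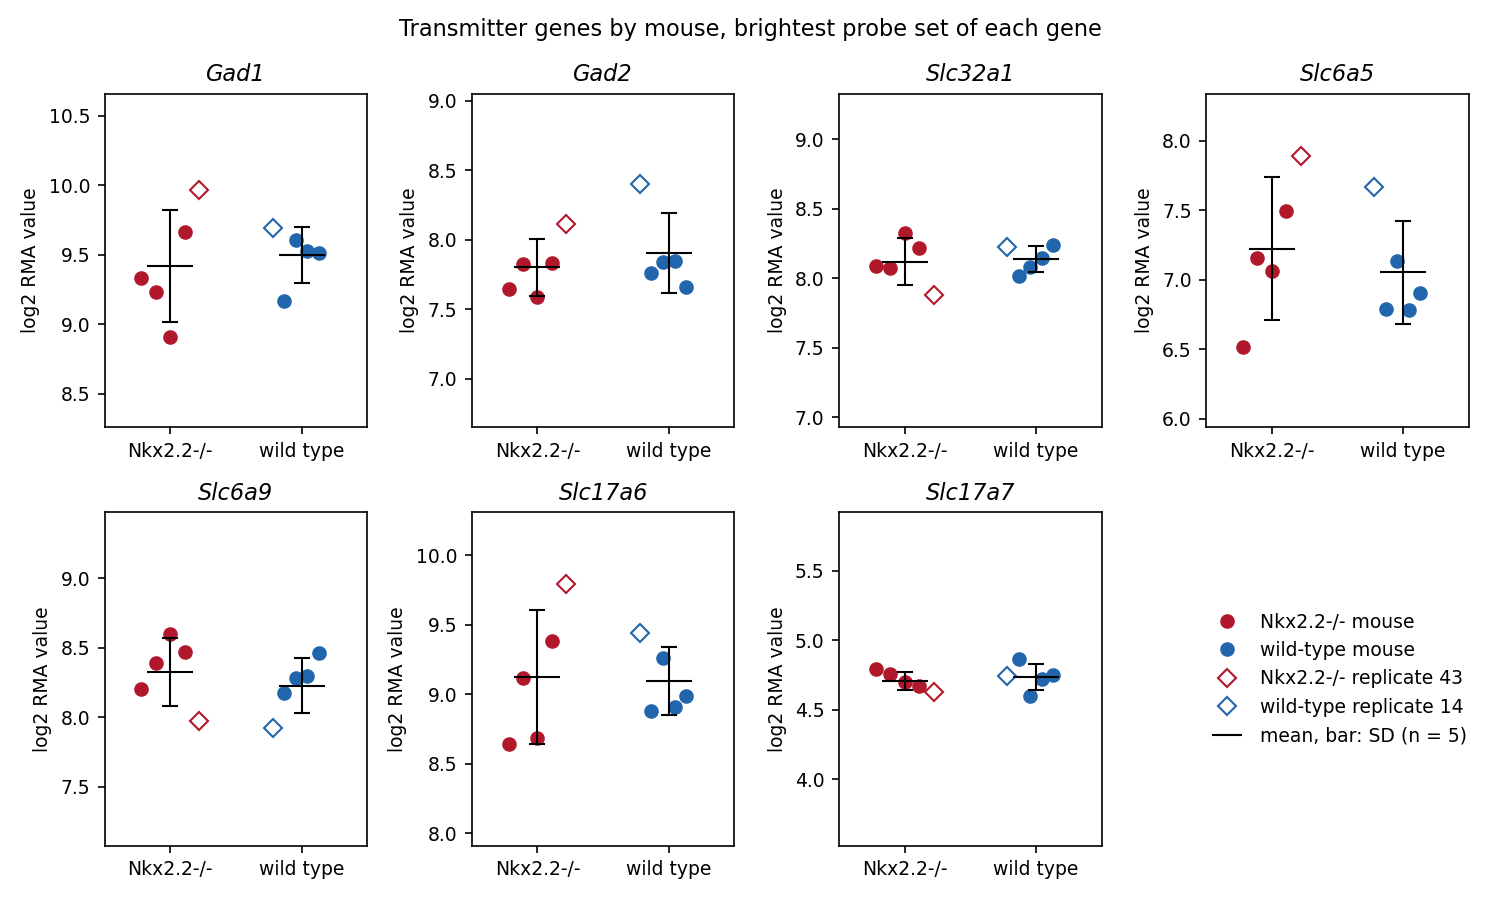
Log2 RMA value (vertical axis, the same span in each panel) of the brightest probe set of each gene in every mouse, Nkx2.2-/- at left and wild type at right; black lines are the mean and SD of 5 mice, and open diamonds the 2 arrays of low 5 prime Gapdh signal. The groups overlapped for all 7 genes, and the open diamonds were the highest of their group for Gad1, Gad2, Slc6a5 and Slc17a6 and the lowest for Slc6a9.

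Differences in the GABA-synthesising enzymes were smaller than the spread between mice. The brighter Gad1 probe set, 1416561_at, read 9.33, 9.23, 8.91, 9.66 and 9.96 in Nkx2.2-/- replicates 11, 12, 22, 29 and 43, against 9.69, 9.16, 9.60, 9.53 and 9.51 in wild-type replicates 14, 15, 16, 18 and 21. The Nkx2.2-/- mice held both the lowest and the highest value, and the groups overlapped. The means were 9.42 ± 0.406 in Nkx2.2-/- and 9.50 ± 0.201 in wild-type mice (SD, n = 5 each), a difference of -0.08 with a 95% interval of -0.47 to 0.31 (limma adjusted p = 0.9997). That interval spans 0.722 to 1.24 times the wild-type signal. The second Gad1 probe set, 1416562_at, followed the first across mice and ran from 6.16 to 7.56 in Nkx2.2-/- and from 6.46 to 7.12 in wild-type mice, with a difference of 0.09. The 2 differences thus had opposite signs, and neither was larger than the spread between mice.

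Gad2 encodes the second decarboxylase, which is enriched at nerve terminals. Its brighter probe set, 1429589_at, read 7.64, 7.82, 7.59, 7.83 and 8.12 in Nkx2.2-/- replicates 11, 12, 22, 29 and 43, against 8.40, 7.76, 7.84, 7.85 and 7.66 in wild-type replicates 14, 15, 16, 18 and 21. Wild-type replicate 14 stood above the other 9 mice, and the rest of the groups overlapped. The difference was -0.10 (95% interval -0.41 to 0.21, limma adjusted p = 0.9997). Without the 2 arrays of dim 5 prime Gapdh the Gad2 difference was -0.06 (-0.21 to 0.10), and that of Gad1 was -0.17 (-0.50 to 0.16). The dimmer Gad2 probe set, 1421978_at, which lay above 48.9% of probe sets, had a difference of 0.03.

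The vesicular carrier of GABA and glycine showed the narrowest interval among the brightest probe sets above the middle of the array's range. For Slc32a1, probe set 1422756_at read 8.09, 8.08, 8.33, 8.22 and 7.88 in Nkx2.2-/- replicates 11, 12, 22, 29 and 43, and 8.22, 8.01, 8.08, 8.14 and 8.24 in wild-type replicates 14, 15, 16, 18 and 21. The 5 wild-type values lay inside the range of the Nkx2.2-/- values. The difference was -0.02 with a 95% interval of -0.20 to 0.15, or 0.872 to 1.11 times the wild-type signal (limma adjusted p = 0.9997). Without the 2 arrays it was 0.06 (-0.10 to 0.22). The 3 other Slc32a1 probe sets lay above 35.7% to 43% of probe sets, followed the bright one weakly across mice (Pearson r from 0.07 to 0.38 over 10 arrays) and had differences from -0.02 to 0.02. RMA compresses differences of dim probe sets, so those 3 say little about the transcript.

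Neither glycine transporter gene was called. The brighter Slc6a5 probe set, 1442177_at, read 6.52, 7.15, 7.07, 7.49 and 7.89 in Nkx2.2-/- replicates 11, 12, 22, 29 and 43, against 7.66, 6.79, 7.14, 6.78 and 6.90 in wild-type replicates 14, 15, 16, 18 and 21. Replicate 43 was highest and replicate 11 lowest of all 10 mice, both Nkx2.2-/-. Its difference of 0.17 was the largest among the brightest probe sets and had the widest interval, -0.37 to 0.71, or 0.773 to 1.63 times the wild-type signal (limma adjusted p = 0.9997). Without the 2 arrays the difference was 0.15 (-0.24 to 0.54), and with the mean of the spinal cord Hox genes as a covariate it was -0.07. The dimmer Slc6a5 probe set, 1425992_at, above 27.1% of probe sets, had the lowest p of the 15, at a difference of 0.06 (unadjusted limma p = 0.223, exact two-sided permutation p = 0.183).

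For Slc6a9, the mainly glial transporter, probe set 1417636_at read 8.20, 8.39, 8.60, 8.47 and 7.97 in Nkx2.2-/- replicates 11, 12, 22, 29 and 43, and 7.92, 8.17, 8.28, 8.30 and 8.46 in wild-type replicates 14, 15, 16, 18 and 21. The arrays of low 5 prime Gapdh signal were the lowest of their groups, unlike for Slc6a5. The difference was 0.10 (95% interval -0.18 to 0.37, limma adjusted p = 0.9997), and 0.11 (-0.09 to 0.31) without them. The second probe set, 1431812_a_at, at 5.64 in Nkx2.2-/- replicate 43 and 5.89 in wild-type replicate 14 against 6.20 to 6.50 in the other 8 mice, had a difference of 0.03, and of 0.10 without the 2 arrays. Among 10 measured astrocyte markers 0 were called over all genes (limma), 5 were below 0 and 5 above, and the median was -0.04. By lowest p they were led by S100b (-0.35) and Aldh1l1 (-0.27), followed by Slc1a2 (0.30). An unadjusted limma p under 0.05 was found for 2 of the 10 (20%), beside 3.23% of all genes. The list mean ran from 7.67 to 8.11 in Nkx2.2-/- mice and from 7.90 to 8.05 in wild-type mice.

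Of the vesicular glutamate transporters, Slc17a6 was bright and varied widely between mice of the same genotype. Probe set 1428379_at read 8.64, 9.12, 8.69, 9.38 and 9.79 in Nkx2.2-/- replicates 11, 12, 22, 29 and 43, against 9.44, 8.88, 9.26, 8.91 and 8.99 in wild-type replicates 14, 15, 16, 18 and 21. The means were 9.12 ± 0.485 in Nkx2.2-/- and 9.10 ± 0.244 in wild-type mice (SD, n = 5 each). The difference of 0.03 was small beside these SDs (95% interval -0.44 to 0.49, or 0.739 to 1.41 times the wild-type signal, limma adjusted p = 0.9997). Without the 2 arrays the SDs were 0.356 and 0.173 (n = 4 each) and the difference was -0.05 (-0.41 to 0.30). The second probe set, 1418610_at, had the largest difference of the 15, 0.17 (-0.36 to 0.71), with Nkx2.2-/- replicate 43 at 7.65. It was -0.05 without that mouse and -0.08 without the 2 arrays.

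Slc17a7 was read by 1 probe set, 1428986_at, which was dim (above 34% of probe sets). It read 4.79, 4.75, 4.70, 4.67 and 4.62 in Nkx2.2-/- replicates 11, 12, 22, 29 and 43, and 4.74, 4.86, 4.60, 4.72 and 4.75 in wild-type replicates 14, 15, 16, 18 and 21. All Nkx2.2-/- values lay inside the wild-type range. The difference was -0.03 (95% interval -0.14 to 0.09, limma adjusted p = 0.9997). With no detection call in these values, the narrow interval bounds the signal of the probe set and not the transcript.

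**Figure D2:**
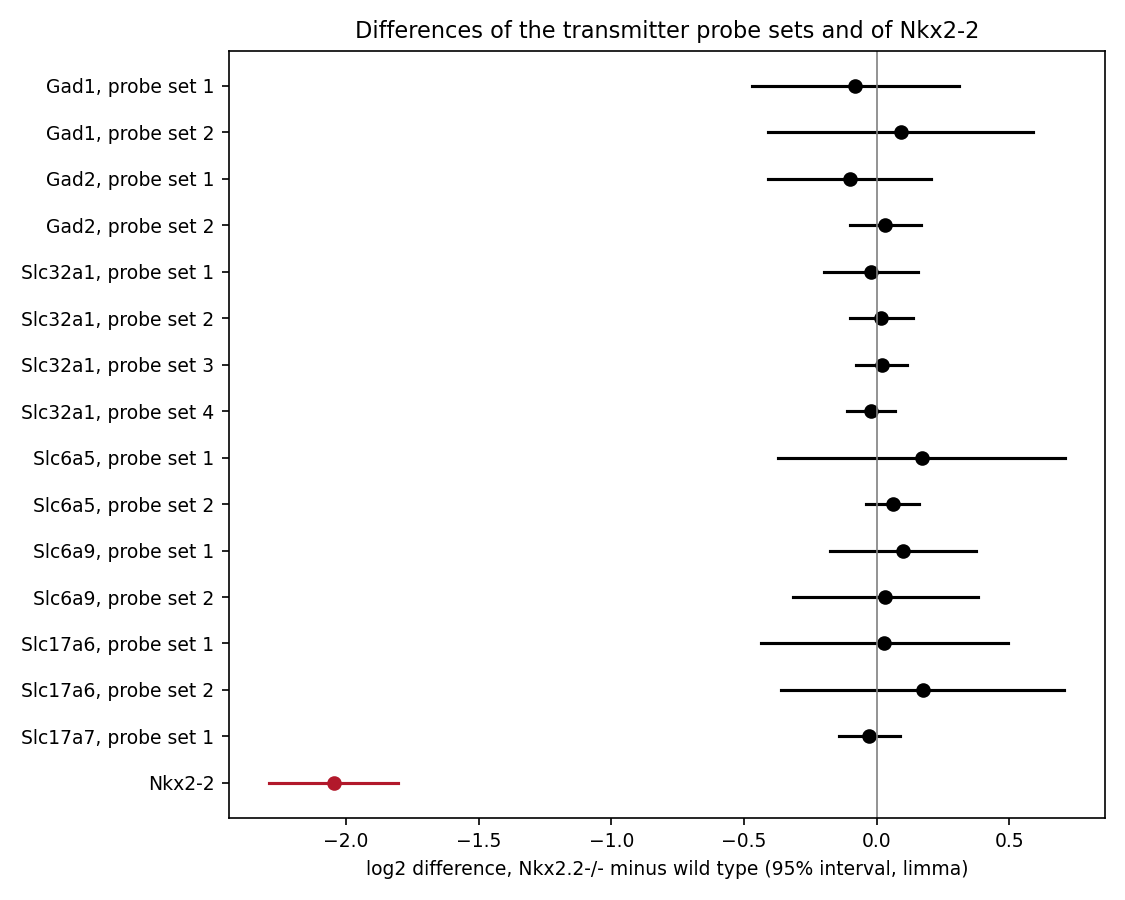
Difference in log2 value, Nkx2.2-/- minus wild type (horizontal axis), with its 95% limma interval for each of the 15 probe sets, numbered from the brightest of each gene, and for Nkx2-2 in red at the bottom. All 15 intervals span 0 and lie between -0.47 and 0.71, whereas that of Nkx2-2 runs from -2.29 to -1.80.

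The intervals set what these arrays could have shown. For all 15 probe sets a change as large as 1 on the log2 scale in either direction lay outside the 95% interval. For the brighter Slc6a5 and the second Slc17a6 probe set, a rise of up to 0.71 lay inside it. For the dim probe sets of Gad2, Slc32a1, Slc6a5 and Slc17a7, the interval bounds the signal of the probe set and not the transcript. The median SE was 0.125 over the 15 probe sets, beside 0.0570 over all probe sets. The dim probe sets among the 15 had SEs of only 0.0404 to 0.0608, and RMA compresses dim signals, so the 2 medians do not compare precision at like brightness. By 1 probe set a gene, the median SE was 0.141 for the 7 genes, 0.119 for neurons in general and 0.0674 for all genes. Over the pathway and transcription factor lists described below it ran from 0.0953 to 0.179, so a median SE above that of all genes was not particular to the transmitter genes.

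Across the 10 mice, 4 of the transmitter genes, Gad1, Gad2, Slc6a5 and Slc17a6, moved together. By their brightest probe sets, Slc6a5 and Slc17a6 were the most alike pair (Pearson r = 0.92, Spearman 0.90). Gad1 followed Slc17a6 (Pearson 0.84, Spearman 0.85) and Gad2 followed Slc17a6 (0.77 and 0.82). The inhibitory carrier gene Slc32a1 did not: its Pearson r was -0.42 with Slc17a6 and -0.18 with Slc6a5, and it was lowest of all in Nkx2.2-/- replicate 43, where Gad1, Slc6a5 and Slc17a6 were highest. The 4 genes also followed the gap between the 3 prime and 5 prime Gapdh controls, with Pearson r of 0.65 for Gad1, 0.76 for Gad2, 0.79 for Slc6a5 and 0.76 for Slc17a6. With the mean of the genes of neurons in general it was 0.52 to 0.87. The part of either in the likeness was not tested. The dim second Slc6a5 probe set did not follow Slc17a6 (-0.21). These values describe 10 arrays that share tissue, dissection and normalization, 2 of which stood apart. Over the other 8 arrays, Pearson r was 0.81 for Slc6a5 with Slc17a6, 0.69 for Gad1 with Slc17a6 and 0.75 for Gad2 with Slc17a6. It was only 0.25 for Gad1 with Slc6a5, against 0.64 over 10, and 0.41 for Gad2 with Slc6a5, against 0.75 over 10. Slc6a9 ran against Slc6a5 over 10 arrays (-0.41) and with it over 8 (0.59). Slc32a1 was closest to Slc6a9, at 0.61 over 10 arrays and 0.91 over 8, and did not follow Gad1 over either set (-0.41 and -0.14).

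**Figure D3:**
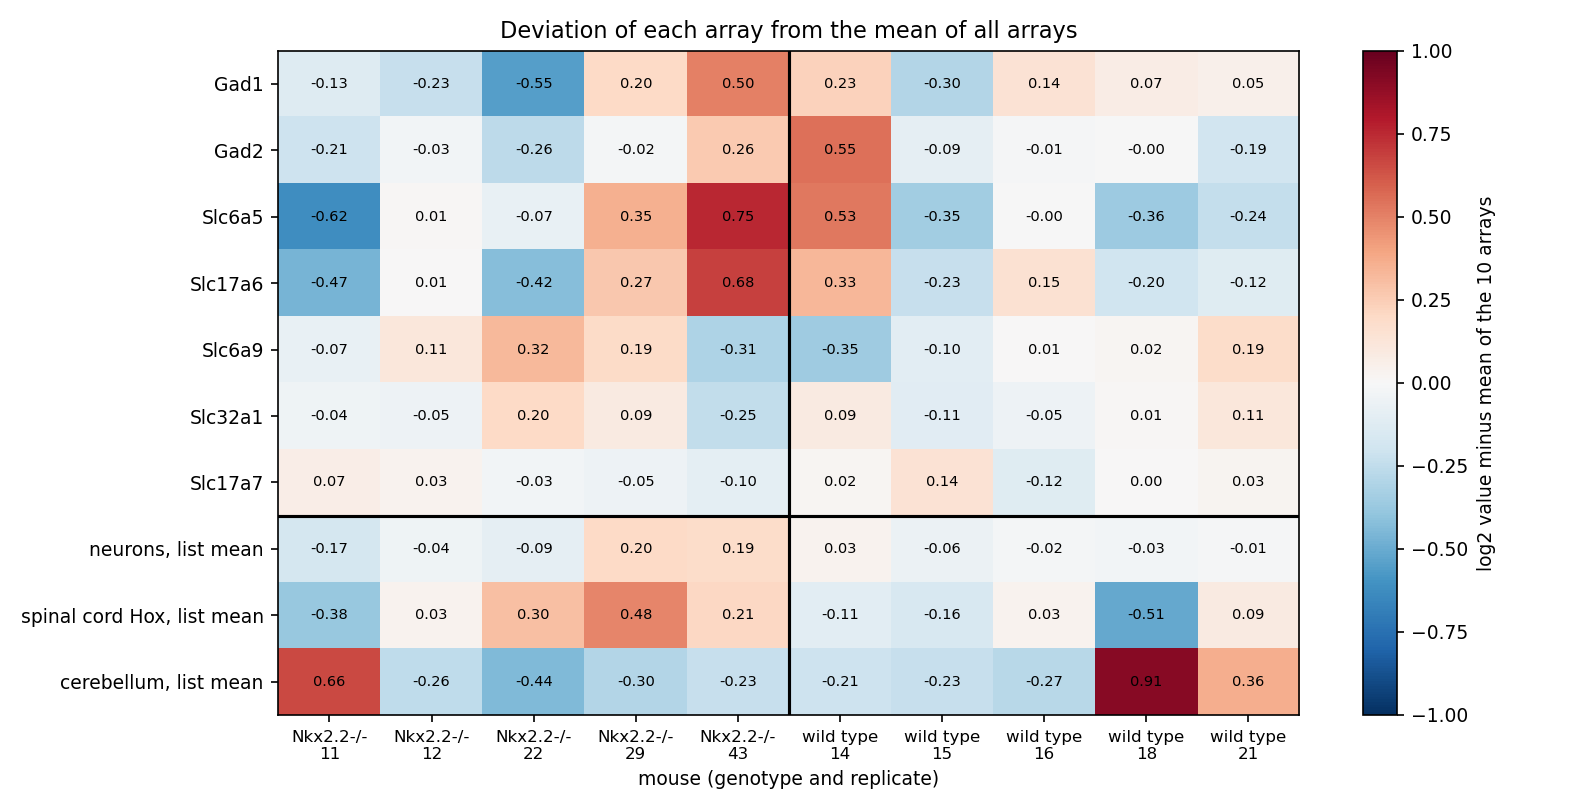
Log2 value minus the mean of the 10 arrays for the brightest probe set of each gene (upper 7 rows) and for the means of 3 marker lists (lower rows), with Nkx2.2-/- mice at left and wild-type mice at right of the vertical line. Slc6a5 and Slc17a6 share their highest arrays, Nkx2.2-/- replicate 43 and wild-type replicate 14, and their lowest, Nkx2.2-/- replicate 11, which is also low in neuronal and spinal cord Hox genes and high in cerebellar genes.

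Means of the marker lists also differed between mice of a genotype, and not always in step with the transmitter genes. In Nkx2.2-/- replicate 11, lowest for Slc6a5 and Slc17a6, the mean of 14 neuronal genes was 9.76, against 9.85 to 10.1 in the other Nkx2.2-/- mice and 9.88 to 9.97 in wild-type mice. Its cerebellar list mean was 6.82, against 5.71 to 5.92 in the other Nkx2.2-/- mice, and wild-type replicates 18 and 21 stood at 7.07 and 6.52, against 5.88 to 5.94 in the other 3. Its spinal cord Hox mean of 5.34 was the lowest of the Nkx2.2-/- mice, the others at 5.75 to 6.20, and wild-type replicate 18 was lowest of its group at 5.21. Nkx2.2-/- replicate 22, second lowest of its genotype for Slc17a6 at 8.69, instead had the lowest cerebellar mean of all mice, 5.71, and a spinal cord Hox mean of 6.02. Of 14 spinal cord Hox genes 14 had differences above 0 and 0 were called (limma), and of 13 cerebellar genes 12 were below 0 and 0 were called. An unadjusted limma p under 0.05 was found for 2 of the 14 (14.3%) and 0 of the 13 (0%), beside 3.23% of all genes. The largest Hox difference was that of Hoxc8, 1.33. It read 7.22, 6.96 and 6.17 in Nkx2.2-/- replicates 22, 29 and 43, but 4.72 and 4.82 in replicates 11 and 12. Wild-type mice read 4.53 to 4.84. The part of these lists in the values of the transmitter genes was not tested. With each list mean as a covariate in turn, 0 of the 15 probe sets were called (limma). The Slc17a6 difference was then -0.06 with the neuronal mean, -0.05 with the cerebellar mean and -0.13 with the spinal cord Hox mean.

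The genes whose values followed each transmitter gene most closely were found among 18193 genes by Pearson r over the 10 arrays. For Slc17a6 they were Nap1l2 (0.99), Cdh7 (0.99) and Cadps (0.98), and for Slc6a5 Lypd6b (0.98), Adamts16 (0.98) and Prkcq (0.98). For Gad1 they were Kiz, Chl1 and Farsb (0.97 each), and for Gad2 Slc39a9 (0.98), Smap1 (0.98) and Prune1 (0.97). Slc6a9 was most like Ephb6 (0.96), Camta2 (0.96) and Dvl3 (0.95). Slc32a1 was most like Dpf3 (0.93), Rrp1b (0.93) and Gng3 (0.92), and the dim Slc17a7 like Plekhg2 (0.95), Fam71e1 (0.91) and Ccn1 (0.90). High values are easy to reach by searching many genes over few arrays. Over the 8 arrays with bright 5 prime Gapdh these 21 values ran from 0.85 for Gad2 with Prune1 to 0.99 for Slc17a6 with Nap1l2.

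Around the 8 genes, no gene of transmitter supply and clearance was called either. Of 64 measured genes in 4 pathway lists and 2 lists of transcription factors, 0 were called lower or higher over all genes (limma), and 1 had an unadjusted p under 0.05 (1.56%, beside 3.23% of all genes). For GABA uptake and breakdown, 0 of 5 were called, with a median of 0.03. Its lowest p values were those of Aldh5a1, which completes the breakdown of GABA to succinate (0.12), and the transporter gene Slc6a13 (-0.05). Of 8 glycine genes 0 were called (median -0.05), led by Shmt2 (-0.14), which makes glycine from serine, and Gcsh (-0.10), of the glycine cleavage system. Of 12 genes of glutamate and glutamine supply and uptake 0 were called (median 0.03). The astrocytic glutamate transporter gene Slc1a2 had the lowest p there (0.30, SE 0.188), followed by Slc38a5 (-0.16), a glutamine transporter gene. The median over all genes was -0.0042.

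Transcription factors that set the transmitter type of hindbrain and cord neurons were read next. Among 13 measured factors of inhibitory neurons 0 were called (limma), 9 were above 0 and 4 below, and the median was 0.05. Gata3, which acts in V2b interneurons and also in serotonergic neurons, had a difference of -0.18 and Lbx1, of dorsal inhibitory lineages among others, one of 0.25. Among 14 measured factors of excitatory neurons 0 were called, 5 were above 0 and 9 below, and the median was -0.02. Lhx9, of dorsal commissural neurons, had a difference of -0.19, and Prrxl1, of dorsal sensory neurons, one of 0.47 with an SE of 0.312. Sim1, the V3 interneuron factor, added for its origin from Nkx2.2-expressing progenitors, had a difference of 0.09. Its probe set was dim, above 48.8% of probe sets, so this says little about the transcript or about V3 neurons.

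Of 12 measured genes for carriers of other transmitters and the vesicular proton pump 0 were called (limma), with a median of 0.01, and Slc17a9, the vesicular nucleotide carrier gene, had a difference of 0.03. Of the 64 genes, 1 had groups that did not overlap: Slc18a2, the vesicular monoamine transporter gene, which also marks serotonergic neurons (beside 0.682% of all genes with separated groups). It read 5.67, 5.56, 5.67, 5.53 and 5.10 in Nkx2.2-/- replicates 11, 12, 22, 29 and 43, against 5.90, 5.98, 5.99, 6.03 and 5.98 in wild-type replicates 14, 15, 16, 18 and 21. The difference was -0.47 (95% interval -0.69 to -0.25), which was not called among all genes (limma adjusted p = 0.495). Any gene whose groups do not overlap has the same exact two-sided permutation p, 0.00794 unadjusted, the smallest that 5 against 5 arrays can give. It therefore adds nothing to the separation by which Slc18a2 was picked. Without the 2 arrays of dim 5 prime Gapdh the difference was -0.39 and passed (limma adjusted p = 0.0436). Without Nkx2.2-/- replicate 43 alone it was -0.37 and passed (limma adjusted p = 0.0355). Slc18a2 passed in only 4 of 22 alternatives, with limma adjusted p from 0.0100 to 0.99996, so its call depended on the setting. Slc18a3, the acetylcholine carrier gene of the same family, had overlapping groups and a difference of 0.04 (-0.38 to 0.47).

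**Figure D4:**
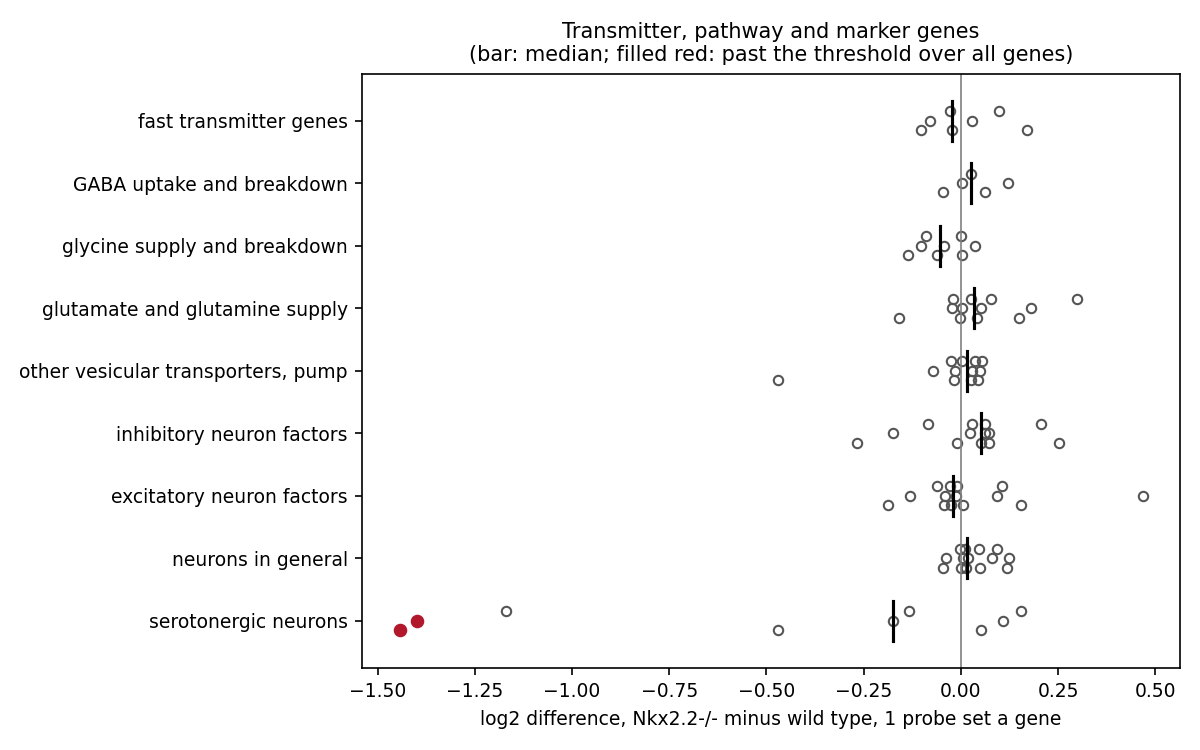
Difference in log2 value, Nkx2.2-/- minus wild type (horizontal axis), of each measured gene by 1 probe set, in 9 lists; the bar is the median of a list and filled red points passed over all genes (limma). The 7 transmitter genes lie between -0.10 and 0.17, and the only filled points are Tph2 and Slc6a4 of the serotonergic list; the open point at -0.47 in both the serotonergic and the vesicular list is Slc18a2.

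Genes of neurons in general were not called, whereas 2 serotonergic genes were. Of 14 genes of most neurons 0 were called (limma), with a median of 0.02. Rbfox3 had a difference of 0.12 and Dcx, of immature neurons, also 0.12. The list mean was 9.96 ± 0.169 in Nkx2.2-/- and 9.92 ± 0.0332 in wild-type mice (SD, n = 5 each). Of 9 measured serotonergic genes 2 fell over all genes (limma). They were Tph2, the serotonin-synthesising enzyme of the brain (difference -1.44), and Slc6a4, the serotonin transporter (difference -1.40). Both were already known from earlier results of these data. Of the 9, 6 were below 0 and 3 above, with a median of -0.18. Ddc, at -1.17, was not called (limma adjusted p = 0.104). Those above 0 were Lmx1b (0.15), Htr1a (0.11) and Gata2 (0.05). Tph2 ran from 4.12 to 4.64 in Nkx2.2-/- mice and from 5.43 to 6.14 in wild-type mice. The 95% interval of its difference, -1.74 to -1.15, shared no value with that of any of the 15 GABA, glycine and glutamate probe sets, although the difference between them was not itself tested.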

How the data were processed

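RNA of 10 mice was measured on 1 array each. The authors deposited log2 values, which the submitters' processing notes credit to RMA, a method that corrects background, gives the arrays a common distribution and condenses each probe set to a single value. No source used here names its version, the table held no detection call, and RMA would hide a change shared by most genes. Values ran from 3.52 to 13.2, with array medians from 5.07 to 5.12, and the number of arrays limits the precision. Of 45101 probe sets 64 controls were left out. Groups came from the sample titles. The titles do not say which mice shared a litter, so litter was not modelled. The p-values set the difference between genotypes against the spread between mice of the same genotype, whatever its source.

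Nkx2.2-/- minus wild type was fitted with lmFit and eBayes of limma 3.58.1 (R 4.3.3) without covariates or filter. Benjamini-Hochberg adjustment ran over all 45037 probe sets for the 8 genes, and over 18193 genes (highest-mean probe set among those with 1 symbol) for the lists. Some listed genes had no such probe set and were not analysed here. The exact permutation test enumerated all splits of 5 against 5. The fit was tested on simulated data. Plots were drawn with matplotlib 3.10.9 from tables read by pandas 2.3.3 (Python 3.11.15). Sequences and chromosomes are from RefSeq (GRCm38.p6), matched by symbol for 8 of 8 genes. No source used here gives the build behind the probes.

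The 8 genes and all lists were chosen with earlier results of these data known. Genes named are the 8, Nkx2-2, each pathway list's called genes and its 2 of lowest p, and the 3 most alike per gene. Marker genes, Sim1, Slc18a3, Tph2 and Slc6a4 apart from that rule were named after their values were seen. Alternatives were other normalizations, filters, priors, weights, covariates and left-out arrays.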

Additional observations from a re-analysis of the deposited data

Results flagged for a closer look

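In 2 of 30 groups of 5 values (15 probe sets in 2 genotypes), 1 mouse lay far from the other 4 of its genotype, by the gap to its neighbour over the whole range. Chance flags about 1 in 20 such groups. The brighter Gad2 probe set read 8.40 in wild-type replicate 14, against 7.66 to 7.85 in the other wild-type mice. The second Slc6a9 probe set read 5.64 in Nkx2.2-/- replicate 43, against 6.28 to 6.50 in the other Nkx2.2-/- mice. These are the 2 arrays of low 5 prime Gapdh signal. Over the 10 arrays, the Gapdh gap had a Pearson r of 0.76 with this Gad2 probe set and -0.95 with this Slc6a9 probe set. The Spearman values were 0.43 and -0.53. With the gap as a covariate, the Gad2 difference was -0.16, against -0.10 in the main fit. The Slc6a9 difference was 0.11, against 0.03. Neither probe set was called with the covariate (limma adjusted p = 0.998 for each), although the unadjusted limma p was 0.0403 for Slc6a9 and 0.0786 for Gad2. Whether the low 5 prime signal caused the flagged values was not tested.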

How the results depend on the processing

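Under 23 alternatives, 0 of the 15 probe sets and 0 of the 7 genes were called in either direction, the lowest adjusted p being 0.777 (limma), and Nkx2-2 was called in all 22 that fitted probe sets (-2.10 to -1.97, limma adjusted p up to 8.9e-04). Signs of the 15 small differences were less stable: leaving out single arrays moved Gad1 from -0.22 (without Nkx2.2-/- replicate 43) to 0.05 (without Nkx2.2-/- replicate 22), Slc17a6 from -0.14 (without Nkx2.2-/- replicate 43) to 0.15 (without Nkx2.2-/- replicate 11), and Gad2 to 0.02 (without wild-type replicate 14), all by the brightest probe set. Slc6a5 reached 0.35 without Nkx2.2-/- replicate 11. Of the 64 pathway and transcription factor genes 0 were called lower in the main fit. With array weights (limma adjusted p = 0.0348) or the Gapdh gap as a covariate (0.0100), both over all arrays, 1 was called, Slc18a2. It was also called without the 2 arrays of dim 5 prime Gapdh, whereas single arrays left out gave 0 to 1 called genes. Its difference ran from -0.51 to -0.37 over 22 alternatives, with limma adjusted p from 0.0100 to 0.99996. The cause was not tested. Without the dimmer probe sets, Gad2, Slc32a1, Slc6a5 and Slc17a7 lost dim probe sets, Slc17a7 its only one. Where dim signals set the limit, a difference is compressed towards 0.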
